A study of Homo sapiens with 14 samples.

Results

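RNA was compared between bulk populations of A375 cells, a human melanoma line, edited by CRISPR at ZC3H18 (called Z18) and populations given an empty vector. The members were chosen by their genotype label alone, which gave 3 bulk Z18 CRISPR libraries and 3 bulk control libraries, 6 of the 14 libraries in the series. The edited populations had been transiently transfected with a vector for Cas9 and 1 guide RNA against Z18 and selected with puromycin, and the controls had received the Cas9 vector with no guide RNA. An edited population is a mixture of cells with different edits or none, and the study's methods describe the editing as done in triplicate. The other 8 libraries were single-cell clones of the same line, 3 heterozygous for loss of Z18 (-/+), 3 heterozygous for a truncating allele (trunc/+) and 2 wild type (WT). Libraries were polyA-selected and stranded. P-values measure the spread between these libraries, which may be technical in part.

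Z18 is a zinc-finger protein that links the cap-binding complex on new transcripts to the nuclear exosome, the nuclease assembly that degrades unwanted RNA. Transposable elements (TEs) are repeated sequences of the genome, and LTR elements, among them the endogenous retroviruses (ERVs), LINEs, SINEs such as Alu, and DNA transposons are their main classes. Copies that lie in introns or beyond gene ends are often read as passengers of longer transcripts. Interferon-stimulated genes encode antiviral proteins and are switched on in many cell types when viral-like nucleic acid or interferon is sensed.

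The edited libraries held 28098217 to 32035781 aligned fragments, against 15615675 to 26668594 in the controls. Edited libraries were alike (Pearson r across 12114 genes 0.982 to 0.987 for pairs), while pairs of controls ran from 0.907 to 0.947, and control 1 was closer to the edited libraries (0.964 to 0.974) than to the other controls. Genes are not independent replicates, so these correlations are a description. The median SD over genes was 0.138 on the log2 scale in bulk Z18 CRISPR and 0.435 in bulk control. Control 2 and control 3 stood apart from the rest, control 2 with the highest summed FPKM of ribosomal protein genes (174352, against 66857 to 100904 in the other 5 libraries) and control 3 with the highest 28S ribosomal RNA gene RNA28SN5 (an FPKM of 2695, against 455 to 970 in the other 5). In bulk RNA, fewer cells of a type and less RNA per cell cannot be told apart.

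Z18 itself (ZC3H18, chr16:88570403-88631964, plus strand, hg38) had an FPKM (fragments per kilobase of transcript, scaled to library depth) of 10.4, 11.9 and 12.8 in bulk Z18 CRISPR and 38.1, 13.9 and 48.7 in bulk control. All edited libraries lay below all controls, but control 2 lay close to the edited libraries, and the difference did not pass the test over all genes (log2FC −1.28, SE 0.42, adjusted p = 0.176, limma). Without control 2 the log2 fold change (log2FC) was −1.80, and without control 3 it was −0.93. RNA does not show how much protein was lost.

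The comparison asks what editing of Z18 in a mixed population does to genes and TEs. Of 12114 genes tested, 23 were higher in bulk Z18 CRISPR (0.19% of genes tested) and 19 were lower (0.157%) at an adjusted p under 0.05 with limma. In 2642 genes every edited library lay above every control (21.8%), and in 1261 every edited library lay below (10.4%). The median log2FC of all genes was 0.18, and 64.7% of genes had a positive value, so list medians below are set beside that shift. The number of calls rested on control 1, without which 982 genes were higher and 345 lower. With any 1 of the other 5 libraries left out, 0 to 6 were higher and 4 to 7 lower. On the same 12114 genes, all 42 calls kept their sign whichever library was left out, and 42 stayed past the threshold without control 1, 16 without control 2 and 16 without control 3, against 5 to 9 without 1 of the edited libraries. After quantile scaling, which moved the median of all genes to 0.03, 25 genes were higher and 48 lower.

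Interferon-stimulated genes made up 11 of the 19 genes that were lower. IFI6, a mitochondrial and ER protein of the antiviral response, had an FPKM of 19.8, 16.7 and 17.5 in bulk Z18 CRISPR, against 427, 1188 and 1424 in bulk control (log2FC −5.57, SE 0.42, adjusted p = 0.00238). The edited libraries lay close together while the controls differed among themselves, and even the lowest control was far above every edited library. IFI27, a mitochondrial protein strongly induced by interferon, had 0, 0.137 and 0.244 in bulk Z18 CRISPR, against 27.3, 43.3 and 24.6 in bulk control (log2FC −4.82, SE 0.28, adjusted p = 0.00103). IFIT1, which binds viral RNA lacking cap methylation, had 0.918, 0.763 and 0.864 in bulk Z18 CRISPR and 25.2, 24.4 and 16.8 in bulk control (log2FC −3.63, SE 0.25, adjusted p = 0.00184). For these genes the groups did not overlap. ISG15, a ubiquitin-like modifier, had 20.4, 22.6 and 18.3 in bulk Z18 CRISPR and 137, 479 and 254 in bulk control (log2FC −3.59, SE 0.41, adjusted p = 0.0182).

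Membrane restriction factors were lower too. BST2 (tetherin), which holds budding virus particles at the cell surface, had an FPKM of 0.301, 0.109 and 0.228 in bulk Z18 CRISPR and 6.78, 16.2 and 18.3 in bulk control (log2FC −3.50, SE 0.35, adjusted p = 0.00937). IFITM1, which blocks virus entry, had 0.226, 0.437 and 0 in bulk Z18 CRISPR, against 9.07, 8.68 and 6.83 in bulk control (log2FC −2.92, SE 0.23, adjusted p = 0.00284). Both were near the bottom of the scale in every edited library. MX1, a GTPase that traps viral nucleocapsids, had 2.51, 3 and 3.16 in bulk Z18 CRISPR and 31.3, 13.8 and 27.4 in bulk control (log2FC −2.62, SE 0.32, adjusted p = 0.024), and RSAD2 (viperin), which makes a chain-terminating nucleotide, had 0.166, 0.139 and 0.217 in bulk Z18 CRISPR and 4.23, 2.63 and 4.65 in bulk control (log2FC −2.02, SE 0.22, adjusted p = 0.0159). The other genes of the group that passed were IFI44L (log2FC −2.15), OAS1, a sensor of double-stranded RNA (−1.83), and CMPK2, a mitochondrial nucleotide kinase next to RSAD2 (−1.24). With 1 library left out, IFI6 kept an adjusted p under 0.05 in all 6 fits. IFI27, IFIT1 and IFITM1 kept theirs in the 3 fits in which they passed the filter on low values. They passed it only through the controls, so these fits each left out an edited library and never a control. Such fits do not show how these calls depend on a control. The other 7 lost theirs in at least 1 fit (highest adjusted p 0.0878 for BST2 and 0.418 for CMPK2). BST2, RSAD2 and CMPK2 had the same filter limit.

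The promoters of these genes are shown because members that move together can be read beside the sequence element they share. Interferon acts on such genes through a transcription factor complex whose binding element has a core of GAAA, any 2 bases and GAAA again. Capitals mark matches to this core on either strand, with 12 bases kept on each side, in windows from 250 bases before to 50 bases after the annotated start of the gene (RefSeq, GRCh38.p14). The stretches printed lie at chr1:27672264-27672360 (-) for IFI6, chr14:94110616-94110662 (+) for IFI27, chr10:89392495-89392541 (+) for IFIT1, chr1:1013372-1013411 (+) for ISG15, chr19:17405733-17405772 (-) for BST2 and chr2:6877620-6877653 (+) for RSAD2, and each sequence is written 5′ to 3′ on the strand of its gene:
IFI6: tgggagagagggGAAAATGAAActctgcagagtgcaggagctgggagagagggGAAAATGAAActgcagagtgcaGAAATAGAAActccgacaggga
IFI27: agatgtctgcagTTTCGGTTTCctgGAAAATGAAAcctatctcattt
IFIT1: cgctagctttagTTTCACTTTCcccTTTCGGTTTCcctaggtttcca
ISG15: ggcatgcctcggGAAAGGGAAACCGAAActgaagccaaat
BST2: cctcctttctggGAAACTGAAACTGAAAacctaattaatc
RSAD2: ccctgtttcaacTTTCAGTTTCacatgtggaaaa
IFI6 held 3 matches, in IFI27 and IFIT1 a pair of matches lay 3 bases apart, and in ISG15 and BST2 the matches overlapped each other. The core was found in 9 of the 11 interferon genes that were lower (81.8%, all 11 with an entry), and in 1195 of all 27305 genes with an entry (4.38%). Among all interferon effectors tested it was found in 24 of the 32 with an entry (75%). It was thus nearly as common in the whole list as in the genes that passed. OAS1 and CMPK2 had no match in this window. A match describes letters and is no evidence of binding.

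**Figure D1:**
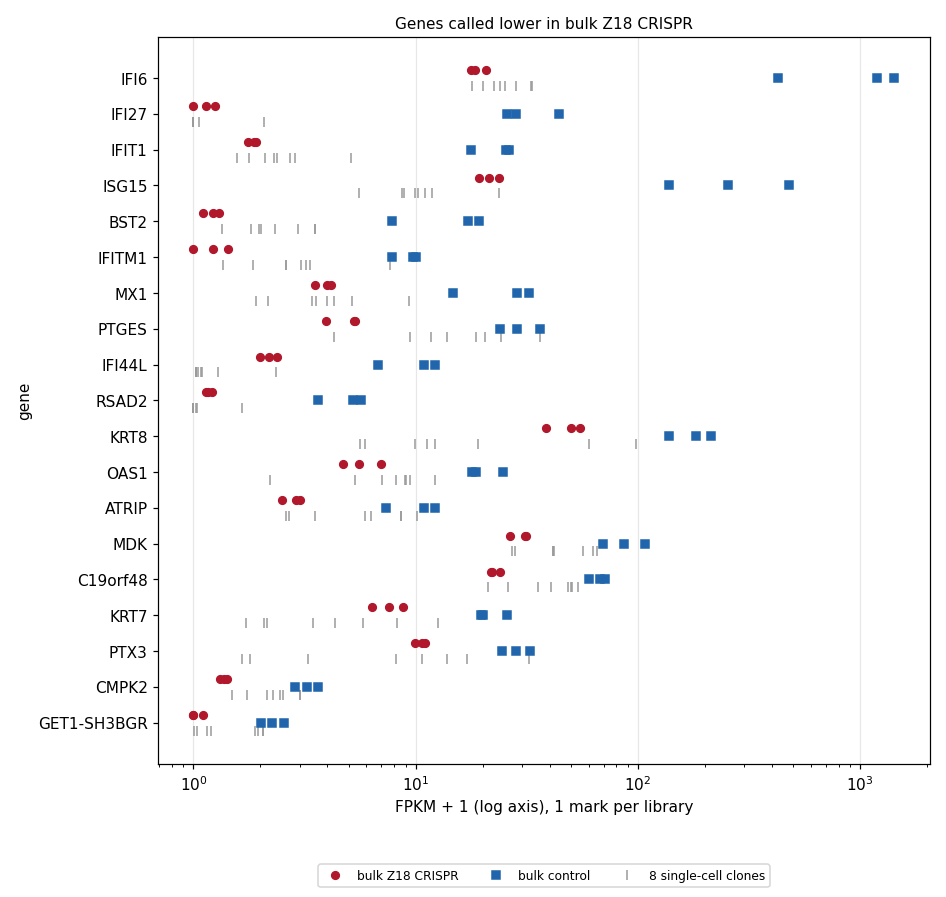
FPKM + 1 on a log axis of the 19 genes that were lower in bulk Z18 CRISPR, with 1 mark per library for bulk Z18 CRISPR (circles), bulk control (squares) and the 8 clones (ticks). The edited libraries lie below the controls for each of the 19 genes, and for 15 of them the mean of the clones lies nearer the edited libraries.

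Across the wider list of interferon effectors, 41 of 44 members passed the filter, 11 were lower and 0 higher by the test, and the median log2FC was −0.83 beside 0.18 for all genes. Every edited library lay below every control for 26 of the 41 (63.4%, beside 10.4% of all genes), and in 0 was it the other way. The list median was between −0.89 and −0.58 with any 1 library left out. Beside the 11 that passed, IFI44 had 34.5, 24.5 and 29.9 in bulk Z18 CRISPR and 71.2, 107 and 81.5 in bulk control (adjusted p = 0.0517). The upstream genes were less uniform. IRF9 had 4.71, 4.04 and 4.48 in bulk Z18 CRISPR and 18.2, 10.7 and 13.2 in bulk control (log2FC −1.45, SE 0.26, adjusted p = 0.079), while STAT2 overlapped between the groups (log2FC 0.82, adjusted p = 0.424). Of the 16 interferon signalling genes tested, 0 passed by limma, with a median of 0.38. Of the sensors of nucleic acid, DDX58 (RIG-I) had a log2FC of −1.26 (adjusted p = 0.0818) and IFIH1 (MDA5) −0.68 (adjusted p = 0.211), neither past the threshold, while STING1, the adaptor of cytosolic DNA sensing, had 15.1, 18.5 and 14.4 in bulk Z18 CRISPR and 11.6, 7.53 and 5.74 in bulk control (log2FC 0.91, adjusted p = 0.163). The median of the 13 sensors tested was −0.01, and 6 had a positive value. Of 17 class I antigen presentation genes none passed, with a median of −0.27. Every edited library lay below every control in 7 (41.2%, beside 10.4% of all genes), among them PSMB9, an interferon-inducible proteasome subunit (log2FC −1.25, adjusted p = 0.0885). Reads of HLA genes can be split among near-identical copies, so their values are uncertain.

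The 8 genes that were lower and lie outside the interferon list came from several families. PTGES, the inducible synthase of prostaglandin E2, had an FPKM of 2.94, 4.29 and 4.35 in bulk Z18 CRISPR, against 27.5, 23 and 35.2 in bulk control (log2FC −2.60, SE 0.25, adjusted p = 0.00937). KRT8, a keratin of simple epithelia, had 48.9, 37.4 and 53.8 in bulk Z18 CRISPR and 181, 211 and 137 in bulk control (log2FC −1.89, SE 0.24, adjusted p = 0.0292), and its relative KRT7 had 7.78, 5.39 and 6.54 in bulk Z18 CRISPR and 19.1, 24.8 and 18.7 in bulk control (log2FC −1.53, SE 0.24, adjusted p = 0.0476). Their groups did not overlap. PTX3, a secreted pentraxin, had a log2FC of −1.42, MDK (midkine), a heparin-binding growth factor, −1.55, and C19orf48 −1.55. The last pair, ATRIP (−1.83) and GET1-SH3BGR (−1.14), are uncertain because ATRIP shares its locus with TREX1 and GET1-SH3BGR is a readthrough of neighbouring genes. GET1-SH3BGR had 0.0994, 0 and 0 in bulk Z18 CRISPR and 1.02, 1.55 and 1.26 in bulk control. It passed the filter only through the controls, so no fit that left out a control could include it. Of the 5 simple keratins tested, the 2 named were lower and the list median was −0.72. All edited libraries lay below all controls in 4 (80%, beside 10.4% of all genes).

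Among the 23 genes that were higher, several belonged to the oxidative stress response and to the control of secreted proteases. HMOX1, which degrades haem and is a target of the antioxidant regulator NRF2, had an FPKM of 392, 572 and 408 in bulk Z18 CRISPR and 73, 38.5 and 31 in bulk control (log2FC 3.31, SE 0.34, adjusted p = 0.00937). SLC7A11, the cystine importer that feeds glutathione synthesis, had 11.1, 14.8 and 12.5 in bulk Z18 CRISPR and 4.03, 2.31 and 2.83 in bulk control (log2FC 1.78, SE 0.26, adjusted p = 0.0412). Edited library 2 was the highest for both. These were the only 2 of 28 NRF2 genes to pass, but the list median was 0.66, and 0.59 to 0.77 when any 1 library was left out. All edited libraries lay above all controls in 19 of the 28 (67.9%, beside 21.8% of all genes) and below them in 0. Members that did not pass included ME1, malic enzyme (log2FC 0.95, adjusted p = 0.121), NQO1, a quinone reductase (345, 296 and 318 in bulk Z18 CRISPR and 161, 204 and 69.1 in bulk control, adjusted p = 0.157), and TXNRD1, thioredoxin reductase (log2FC 1.12, adjusted p = 0.158).

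SERPINB2, which blocks urokinase, had 17.9, 27.4 and 17.2 in bulk Z18 CRISPR and 2.09, 1.37 and 1.1 in bulk control (log2FC 3.11, SE 0.28, adjusted p = 0.00594). TFPI2, a secreted protease inhibitor of the extracellular matrix, had 208, 199 and 166 in bulk Z18 CRISPR and 57.7, 44.2 and 35.9 in bulk control (log2FC 2.05, SE 0.24, adjusted p = 0.0183). Of the 12 genes tested in the plasminogen and serpin list 3 rose, SERPINB2 and TFPI2 among them. In 7 all edited libraries lay above all controls (58.3%, beside 21.8% of all genes). MMP1, interstitial collagenase, had 99.6, 197 and 110.2 in bulk Z18 CRISPR, against 33.8, 26.4 and 19.6 in bulk control (log2FC 2.27, SE 0.32, adjusted p = 0.0391). It was the 1 of 17 matrix proteases past the threshold, where MMP14 (log2FC 1.71, adjusted p = 0.0885), ADAM19, a membrane metalloprotease (1.95, adjusted p = 0.0885), and MMP2 (1.54, adjusted p = 0.105) missed it, and the list median was 0.57.

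BMP4, a bone morphogenetic protein, had 10.4, 8.62 and 9.09 in bulk Z18 CRISPR and 2.54, 1.43 and 0.642 in bulk control (log2FC 2.10, SE 0.31, adjusted p = 0.0412). PMEPA1, which is induced by TGF-beta and damps its signal, had 89.9, 74.4 and 62.7 in bulk Z18 CRISPR and 19.1, 16.4 and 10.3 in bulk control (log2FC 2.26, SE 0.27, adjusted p = 0.0219). WNT9A, a WNT ligand, had 13.4, 18.6 and 12.4 in bulk Z18 CRISPR and 2.73, 0.942 and 2.44 in bulk control (log2FC 2.42, SE 0.32, adjusted p = 0.0297). It was the 1 of 22 WNT pathway genes tested that passed, with all edited libraries above all controls in 3 of the 22 (13.6%, beside 21.8% of all genes). In the TGF-beta and BMP list of 26 genes, 2 rose, all edited libraries lay above all controls in 11 (42.3%, beside 21.8% of all genes) and below in 3 (11.5%, beside 10.4% of all genes), and the members with the lowest log2FC were ID1 (−1.41, adjusted p = 0.0992), ID3 (−1.28, adjusted p = 0.12) and SMAD6, direct BMP targets that did not pass.

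The remaining genes that rose had mixed roles. ANGPTL4, a lipoprotein lipase inhibitor induced by hypoxia, had 30.8, 26.4 and 29.7 in bulk Z18 CRISPR and 7.74, 7.35 and 3.7 in bulk control (log2FC 2.09, SE 0.28, adjusted p = 0.0349). CTSB, a lysosomal protease, had a log2FC of 1.60, LYPD3, a GPI-anchored surface protein, 2.22, PRR9, of the epidermal differentiation complex, 3.00, LBH, a transcription cofactor, 1.63, and LAPTM5, a lysosomal membrane protein, 1.40. BCL2A1, which opposes cell death, had 1.76 and BMF, a BH3-only protein that promotes it, 1.31. ETHE1, a mitochondrial sulfur dioxygenase, had 1.45, ZFP90, a zinc-finger protein, 1.39, FAM180A 1.49 and SNORA21, a small nucleolar RNA encoded inside a host gene, 1.88. With 1 library left out, LOC100506123 kept an adjusted p under 0.05 in each fit in which it passed the filter. It passed only through the edited libraries, so those fits left out only controls, each at 0 for this gene. They are therefore no check of its call. The same filter limit held for BMF, FAM180A, LAPTM5, LBH, PRR9, SGK3 and ZFP90, with every control under 1. In the other 22 the highest adjusted p ran from 0.0557 for SERPINB2 to 0.407 for ETHE1, with 0.0757 for HMOX1 and 0.358 for SLC7A11. LOC100506123 and SGK3 were listed at 0 in all 3 controls. LOC100506123 had 4.89, 5.74 and 6.59 in bulk Z18 CRISPR and SGK3, a kinase, had 1.82, 2.19 and 2.3, so no fold is given. SGK3 shares its locus with the readthrough gene C8orf44-SGK3, so its reads are uncertain.

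**Figure D2:**
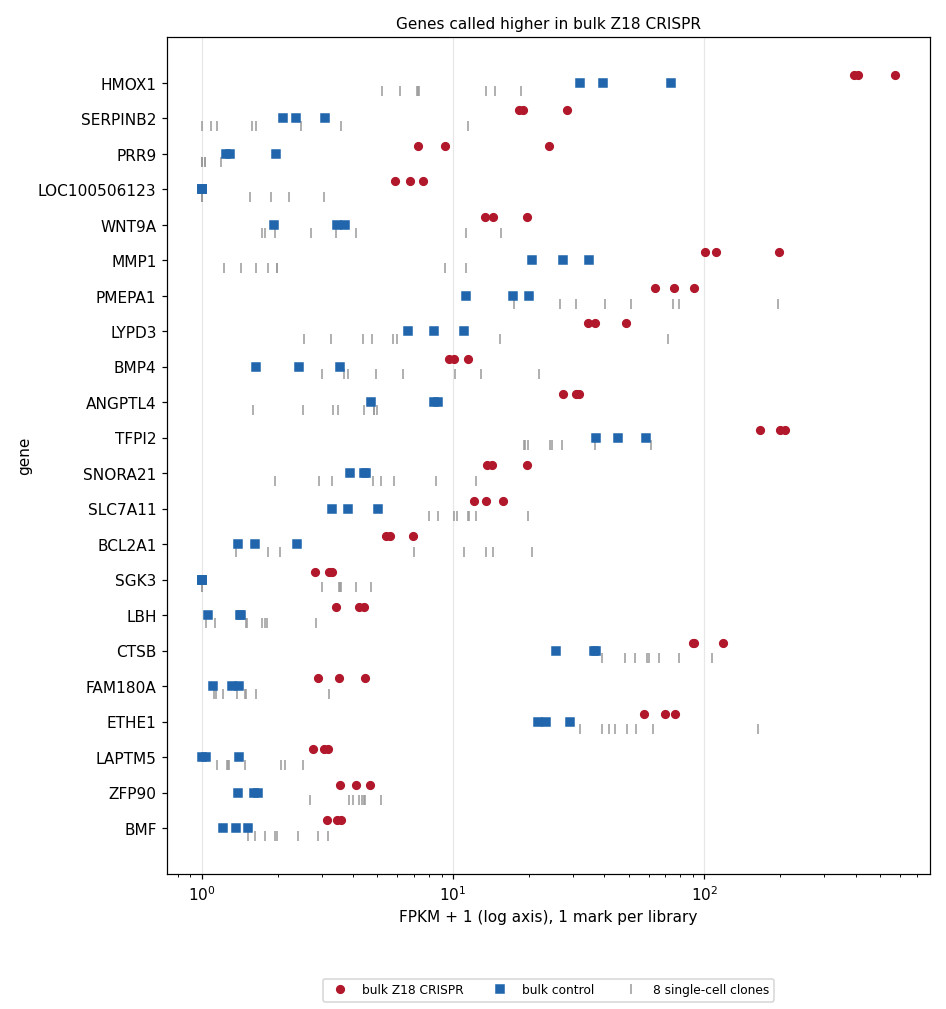
FPKM + 1 on a log axis of 22 of the 23 genes that were higher in bulk Z18 CRISPR, with 1 mark per library for bulk Z18 CRISPR (circles), bulk control (squares) and the 8 clones (ticks). No control reaches the lowest edited library for any of the 22 genes shown.

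Several other lists had medians above the shift of all genes with few or no members past the test. Of 9 class II antigen presentation genes 0 passed and the median was 0.74. In 8 all edited libraries lay above all controls (88.9%, beside 21.8% of all genes), led by CD74, the invariant chain (159, 156 and 172 in bulk Z18 CRISPR and 81.6, 50.2 and 37.4 in bulk control, adjusted p = 0.0838). In the ATF4 stress list 0 of 31 passed, with a median of 0.44 and 16 non-overlapping upwards (51.6%, beside 21.8% of all genes). Among the 16 were CBS, which makes cystathionine (log2FC 2.39, adjusted p = 0.093), ASNS, asparagine synthetase (log2FC 1.07, adjusted p = 0.0906), and CHAC1, which degrades glutathione (1.44, adjusted p = 0.093). CBS was uneven, with 4.96, 9.48 and 7.19 in bulk Z18 CRISPR, 2.54, 0 and 0 in bulk control and 0.793 to 13.2 in the clones. Lysosomal hydrolases had 1 of 34 past the test, CTSB, and a median of 0.52, and 1 of 31 hypoxia and glycolysis genes, ANGPTL4, passed beside a list median of 0.40. Over all genes, limma gave an unadjusted p under 0.05 to 1690 genes that were higher and 839 that were lower, so lists with no member past the adjusted threshold are not shown to be unchanged. Proliferation genes lay on the other side. Of 40 mitosis and G2/M genes none passed and the median was −0.48. In 13 all edited libraries lay below all controls (32.5%, beside 10.4% of all genes), such as PTTG1, securin (162, 105 and 152 in bulk Z18 CRISPR and 232, 570.3 and 430.4 in bulk control, adjusted p = 0.121). That median was −0.23 without edited library 2, in which the mitotic genes BIRC5 and HMMR had their lowest FPKM of the 6 libraries.

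Lists of RNA surveillance genes, the machinery in which Z18 acts, had medians near the shift of all genes, while single members varied. Of 16 genes of the cap-binding list, which holds Z18 itself, 0 passed and the median was 0.05 (members from −1.28, Z18, to 0.69). Of 27 genes of NEXT, PAXT and the exosome 0 passed and the median was 0.18 (members from −0.99 to 0.95). Few genes passed at all, so 0 in lists of this size says little. SRRT (ARS2), the partner of the cap-binding complex, had 75.4, 66.1 and 77.2 in bulk Z18 CRISPR and 58.9, 35.3 and 43 in bulk control (adjusted p = 0.183). EXOSC3, an exosome subunit, had 49.5, 41.2 and 45.5 in bulk Z18 CRISPR and 61.4, 95.9 and 126 in bulk control (adjusted p = 0.146). For the 25 TE-silencing genes the median was 0.13 and none passed.

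**Figure D3:**
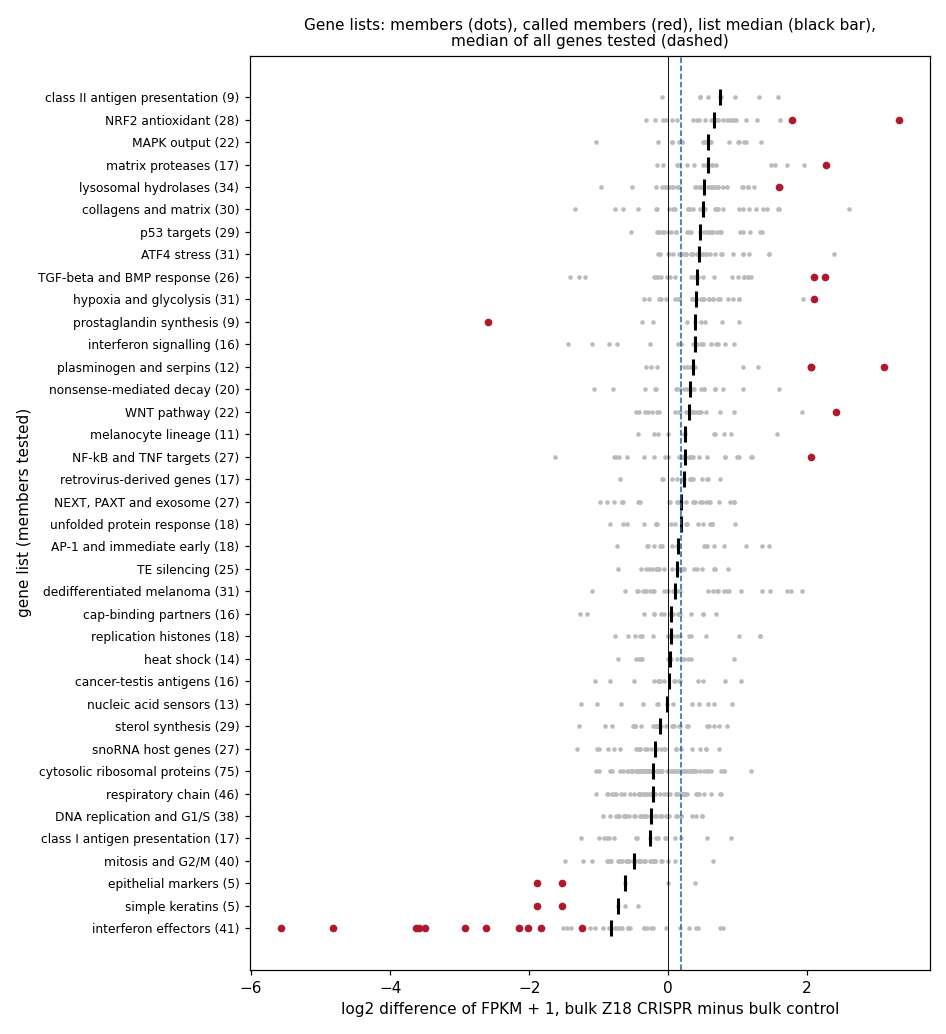
Log2 difference of FPKM + 1, bulk Z18 CRISPR minus bulk control, for the members of 38 lists with 5 or more genes tested (dots, red where past the threshold), with the list median as a bar and the median of all genes, 0.18, as a dashed line. Interferon effectors have the lowest median, −0.83, and class II antigen presentation genes the highest, 0.74.

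Markers of cell type were read in the same libraries. SOX10, a melanocyte lineage factor, had 31.7, 27 and 33.6 in bulk Z18 CRISPR and 18.4, 10.8 and 20.4 in bulk control, and MITF, the lineage regulator, 5.08, 5.15 and 4.73 in bulk Z18 CRISPR and 9.86, 0.512 and 2.27 in bulk control, where the groups overlapped. MLANA and TYR were listed at 0 in all 6 libraries, and 12 of the 23 melanocyte lineage genes were under 1 in every one, so these A375 populations had lineage factors without the main pigment markers. All 8 endothelial markers were under 1 in every library, PTPRC and CD3E were listed at 0, and of 10 fibroblast markers LUM (log2FC 1.36, adjusted p = 0.0885) and FAP (1.11, adjusted p = 0.0818) passed the filter, while COL1A2 was listed at 0. The summed FPKM of the epithelial list, which holds KRT7, KRT8 and KRT18, was 419 to 545 in bulk Z18 CRISPR and 720 to 1114 in bulk control, with EPCAM, CDH1 and KRT5 under 1 throughout. The haematopoietic sum, nearly all CD74 and CD68, was 212 to 221 in bulk Z18 CRISPR and 55.0 to 129 in bulk control. Of the 3 haematopoietic markers tested 1 passed upwards, LAPTM5 (log2FC 1.40, adjusted p = 0.0409, limma). The part of these cells or genes in the results was not tested.

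Gene length moved with the difference. With the tested genes in 5 equal groups from the shortest to the longest in the genome, the median log2FC was −0.05, 0.10, 0.18, 0.25 and 0.37 (Spearman rho across genes 0.29). The median deviation of control 2 from each gene's mean was 0.06 in the shortest group and −0.55 in the longest, and that of control 3 was 0.05 and −0.14, whereas control 1 lay at 0.01 to 0.14. The part of this trend in the calls was not tested. Of the 19 genes that were lower 8 belonged to the shortest group, and of the 23 that were higher 6 did.

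**Figure D4:**
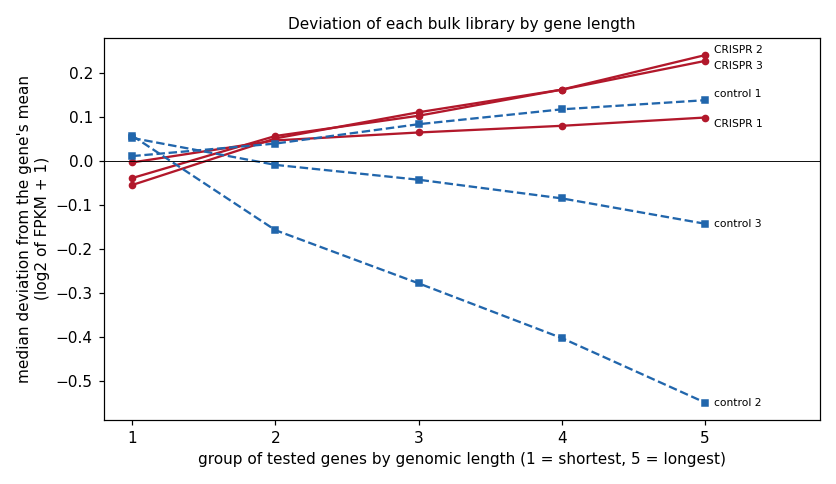
Median deviation of each library from the gene's mean, on the log2 scale of FPKM + 1, in 5 equal groups of the tested genes by genomic length. Control 2 lies at −0.55 in the longest group, while the 3 edited libraries and control 1 rise with length.

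TE copies were counted on the strand of the copy as estimated counts scaled to 1000000 aligned fragments (CPM). LINEs had 12722, 11572 and 10455 in bulk Z18 CRISPR and 9689.6, 7540.2 and 5299 in bulk control (log2 difference 0.66, two-sided exact permutation p = 0.1, the smallest that 3 against 3 allows). Every edited library lay above every control for LINEs, and the same held for DNA elements, with 3377, 3313 and 3114 in bulk Z18 CRISPR and 2957, 2343 and 2326 in bulk control (log2 difference 0.37, exact p = 0.1). LTR elements had 6336, 6697 and 6204 in bulk Z18 CRISPR and 6234, 4731 and 4429.9 in bulk control (log2 difference 0.34, exact p = 0.2), where control 1 exceeded edited library 3. SINEs had 20549.8, 17890.2 and 16669 in bulk Z18 CRISPR and 16512, 29161 and 21337 in bulk control, and the groups overlapped (log2 difference −0.25, exact p = 0.5), control 2 being the highest. None of these could reach an exact p under 0.05. The LINE difference was 0.43 without control 3, and the SINE difference was −0.04 without control 2.

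Within the LTR class the ERV1 family had 2976, 3200.0 and 3003 in bulk Z18 CRISPR and 3172, 1697 and 1669 in bulk control (log2 difference 0.56, exact p = 0.3), with control 1 inside the range of the edited libraries. ERVK (log2 difference 0.31) and ERVL (0.30) were each above the controls in all edited libraries, while ERVL-MaLR overlapped (0.11). L1 was read at 9917, 8705 and 7861 in bulk Z18 CRISPR and 7199.5, 6024 and 3799 in bulk control, a log2 difference of 0.68, and the older L2 family at 0.69 (exact p = 0.1 each). Alu, the primate SINE family, had 17356, 14675 and 13602 in bulk Z18 CRISPR and 13538, 26808 and 18767 in bulk control. Control 1 was below all the edited libraries and control 2 and control 3 above them. The 7SL RNA repeats, from which Alu derives, had 241, 264 and 283 in bulk Z18 CRISPR, against 489, 1126 and 649.9 in bulk control.

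**Figure D5:**
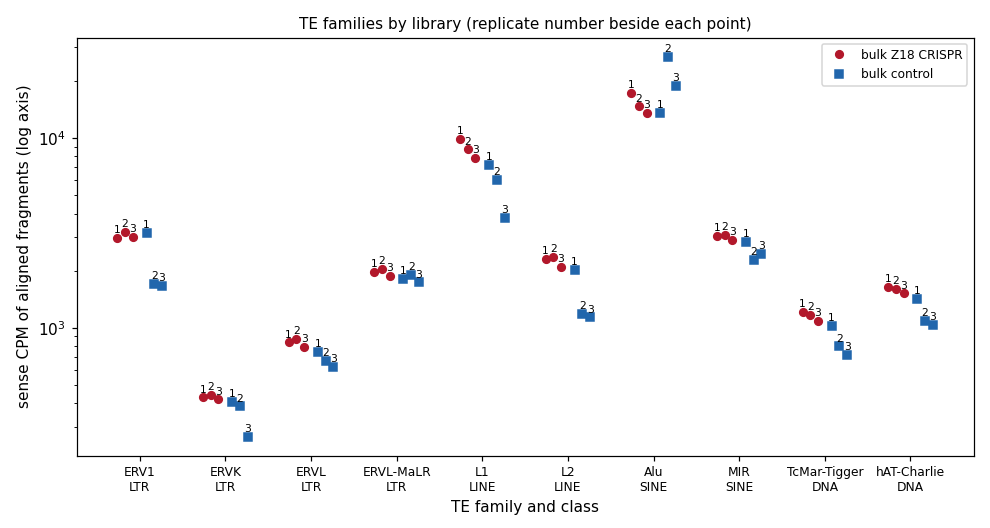
Sense CPM of aligned fragments on a log axis for 10 TE families, 1 point per library with its replicate number, bulk Z18 CRISPR as circles and bulk control as squares. Control 2 and control 3 lie below control 1 in L2 and ERV1 and above it in Alu.

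Copies were also read by place. Of 14031 copies tested, the median log2FC was 0.27, and by class it was 0.82 for 3741 LINE copies, 0.45 for 2028 LTR copies, 0.61 for 1067 DNA copies and −0.14 for 6957 SINE copies. With TMM scaling the median was 0.06 over all copies and 0.25 over LTR copies, and with median-of-ratios it was 0.06 and 0.24. LINE copies had medians of 0.70 in exons, 0.89 in introns, 0.94 on the opposite strand of a gene and 0.93 outside genes. SINE copies had 0.05 in exons, −0.35 in introns, −0.38 on the opposite strand and −0.56 outside genes. LTR copies stood at 0.41 in exons and 0.54 outside genes. Between the log2FC of a copy and of its host gene, which share libraries, Spearman rho was 0.35 across 6041 exonic copies and 0.18 across 2857 intronic copies. By divergence from the consensus, a measure of age, SINE copies had a median of −0.48 under 10%, −0.09 from 10% to 20% and 0.41 over 20%, and LINE copies had 0.92, 0.89 and 0.74 in the same bins.

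Few single copies passed the test. By edgeR's quasi-likelihood test 0 copies were higher (0% of copies tested) and 1 was lower (0.00713%) after adjustment, while an unadjusted p under 0.05 was reached by 1109 copies in the higher direction (7.9%) and 627 in the lower (4.47%), and DESeq2 called 101 higher and 84 lower. The balance turned with scaling, since the counts at an unadjusted p under 0.05 were 812 higher and 1014 lower with TMM and 841 and 1020 with median-of-ratios. In 2487 copies all edited libraries lay above all controls (17.7%) and in 901 below (6.42%). Without control 1, edgeR called 282 higher and 134 lower, and without any other 1 library 0 in either direction. The 1 called copy was an AluSx1 in an exon of XAF1, itself an interferon effector below the filter (chr17:6774759-6775059, plus strand, hg38), with 0.0356, 0 and 0 CPM in bulk Z18 CRISPR and 1.12, 4.59 and 5.57 in bulk control (adjusted p = 0.0299), from estimated counts of 1, 0 and 0 in bulk Z18 CRISPR and 30, 85 and 87 in bulk control. A second interferon gene carried a copy among the 10 LTR copies with the smallest p, LTR23 in an exon of IFI44L (chr1:78644953-78645384), with 0.391, 0.288 and 0.219 in bulk Z18 CRISPR and 3.34, 3.08 and 1.99 in bulk control (adjusted p = 0.141). Neighbouring MER92B and MER67C in an exon of ADAM19 (chr5:157477737-157477977 and chr5:157477976-157478162, minus strand) had log2FC of 2.30 and 2.62, beside 1.95 for the FPKM of ADAM19 itself, and neither passed the threshold. A MER97b copy and an L1ME3A copy, both in an intron of LINC01705 (chr1:222053328-222054463 and chr1:222046754-222047451), did not pass either (adjusted p = 0.141 for each). The MER97b copy had 1.35, 6.09 and 1.5 CPM in bulk Z18 CRISPR, against 0.112, 0 and 0 in bulk control. The L1ME3A copy had 1.21, 6.66 and 1.03 in bulk Z18 CRISPR, against 0.0375, 0 and 0.128 in bulk control. Edited library 2 was the highest in both, and neighbouring copies in 1 gene may be read from 1 transcript.

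Summed by subfamily, 0 of 945 passed by edgeR (0%), an unadjusted p under 0.05 was reached by 163 in the higher direction (17.2%) and 22 in the lower (2.33%), and DESeq2 called 10. Here too the balance turned, to 53 higher and 92 lower with TMM and 49 and 93 with median-of-ratios. All edited libraries were above all controls in 270 subfamilies (28.6%) and below in 17 (1.8%). Without control 1, 173 passed, and with the libraries scaled to each other by TMM the median of all subfamilies was −0.02 in place of 0.36, and that of the 488 LTR subfamilies −0.07 in place of 0.33. LINE subfamilies had a median log2FC of 0.69, and in 89 of 157 all edited libraries lay above all controls. Among the 10 subfamilies with the smallest p the LINEs were L1PBa1 (log2FC 1.41) and L1PB3 (1.42). Young LINE-1 subfamilies moved in the same direction. L1PA5 had 289.6, 313 and 294 in bulk Z18 CRISPR and 206, 134 and 133 in bulk control (log2FC 0.92, SE 0.26, adjusted p = 0.227), and L1PA6 had 169, 179.6 and 158 in bulk Z18 CRISPR and 118, 68.9 and 63 in bulk control (log2FC 1.02). The human-specific L1HS overlapped, since control 1 was above edited library 3. HERVH-int, the internal part of an endogenous retrovirus, had 715, 992 and 945 in bulk Z18 CRISPR and 1146, 161 and 314 in bulk control, where control 1 was the highest of the 6 libraries and control 2 and control 3 the lowest. LTR10C lay below the controls in every edited library, with 12, 8.91 and 11 in bulk Z18 CRISPR and 12.6, 52 and 68.1 in bulk control (log2FC −2.05, adjusted p = 0.227), control 1 being close to the edited libraries.

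The study singled out 2 ERV regions, so their values are not independent evidence of direction. The 15 LTR copies around MER4-int on chromosome 14 (chr14:105032453-105040490, hg38) summed to 13.6, 13 and 10.4 CPM in bulk Z18 CRISPR and 6.45, 3.94 and 4.42 in bulk control (log2 difference 1.34, exact p = 0.1). HERVK3-int with LTR3B copies on chromosome 16 (chr16:35516604-35524479) summed to 6.66, 10.2 and 7.55 in bulk Z18 CRISPR and 4.65, 1.83 and 1.41 in bulk control (log2 difference 1.81, exact p = 0.1). Neither region sum overlapped between the groups. No single copy named in the 2 regions passed by edgeR. The adjusted p ran from 0.374 to 0.781 for the MER4-int copies tested, some of which overlapped between the groups. It was 0.268 for HERVK3-int and 0.56 for LTR3B. At MER4-int the clones gave 6.17 to 21.8 CPM in trunc/+ and 1.33 to 2.42 in -/+, against 0.975 to 1.21 in WT. The unedited bulk controls, at 3.94 to 6.45, thus already lay above every WT and -/+ clone there. At HERVK3-int the clones gave 32.6 to 60.9 in trunc/+ and 7.95 to 21.9 in -/+, against 11.4 to 12.5 in WT. The bulk values of both groups were below those of the WT clones at HERVK3-int.

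Set against the clones, 6 of the 7 genes whose change differed belonged to the interferon response. With limma on 13050 genes, the bulk change, edited minus control, differed from that of -/+ over WT clones in 4 genes (0.0307%) and from that of trunc/+ over WT clones in 6 (0.046%). IFI6, IFI27 and IFIT1 were in both sets. IFI27 had an FPKM of 0 and 0 in WT clones and at most 0.0595 in -/+ clones. RSAD2 had 0 and 0.0308 in WT clones and 0 in all -/+ clones. Neither gene had room to fall in the clones, so its difference largely restates its bulk log2FC (−4.82 and −2.02). WT clones had 1.71 and 0.784 for IFIT1, 10.1 and 7.66 for ISG15, and 27.4 and 24.1 for IFI6. On the log2(FPKM + 1) scale even a fall to 0 from these levels would be smaller than the bulk fall. For these interferon genes a difference from the clones therefore does not show that editing acted otherwise in bulk. Without control 1, 233 genes differed for -/+ and 257 for trunc/+. The summed FPKM of the interferon effectors was 1021 to 1060 in bulk Z18 CRISPR and 2009 to 3170 in bulk control, and 842 to 1170 in trunc/+ clones, 929 to 1094 in -/+ clones and 824 to 1004 in WT clones. For IFI6 the 8 clones had 16.9 to 32.4, from the level of the edited libraries upwards and far below the controls. HMOX1 was the opposite case, with 4.19 to 17.6 in the clones, below both bulk groups. By mean log2 value, the WT clones lay nearer bulk Z18 CRISPR than bulk control for 17 of the 19 genes that were lower, and nearer bulk control for 17 of the 23 that were higher. Clones and bulk populations differ in transfection and growth history, and these cannot be told apart from the editing state in such a comparison.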

How the data were processed

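PolyA RNA of 6 bulk A375 libraries (3 bulk Z18 CRISPR, 3 bulk control) was analysed, with 8 clones for comparison, grouped by genotype label. Members, gene lists and alternatives were chosen with earlier results of these data known. The authors quantified TEs with SQuIRE on hg38 with RepeatMasker (version not given in the sources used here), and the submitters' processing notes name cutadapt 4.6. The deposited TE files give an estimated count per copy and strand, in which shared reads were divided, and a count of uniquely mapped fragments. The deposited gene files give FPKM, and TPM, that the authors made with StringTie over RefSeq genes, which carry no read depth per gene. 0 columns lacked a sample.

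Genes reaching an FPKM of 1 in 3 or more of the 6 libraries were tested on log2(FPKM + 1), after adding entries of the same symbol, with limma 3.58.1 (R 4.3.3) and a mean trend. This scale understates changes of low genes. Estimated TE counts on the sense strand were rounded and tested with edgeR 4.0.16 (quasi-likelihood), with aligned fragments as library size and filterByExpr at a minimum count of 10. DESeq2 1.42.0 was an alternative. P-values were adjusted by Benjamini-Hochberg over all features tested, with 0.05 as the threshold. Class and family sums were compared by two-sided exact permutation tests, whose smallest p is 0.1. Hosts of copies came from GENCODE release 44, and promoters from RefSeq. Both tests were also run on simulated data drawn with a spread setting shared by both groups. The spread of genes differed between the bulk groups, so this does not show how the tests behave on them.

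Named features were ZC3H18, every gene past the threshold, the 3 members of each list with the smallest unadjusted p, and the 10 copies of all classes, 10 LTR copies and 10 subfamilies with the smallest unadjusted p, with 2 ERV regions and listed subfamilies. Other named genes were chosen after their values were seen. Some genes are not reported here. The labels do not say whether libraries with the same replicate number were matched, and the main tests did not pair them.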

Additional observations from a re-analysis of the deposited data

Results flagged for a closer look

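The change of 7 genes in bulk cells differed from the change in clones by a test of the difference itself (limma, adjusted over 13050 genes). IFI27 and RSAD2 were at or near 0 in WT and -/+ clones, so for them it largely restates the bulk change. IFI6, IFIT1 and ISG15 were also too low in WT clones to fall as far as in bulk. The bulk log2 change minus that of -/+ clones was −4.85 for IFI27 (adjusted p = 0.000573), −5.19 for IFI6 (adjusted p = 0.00147), −3.75 for IFIT1 (adjusted p = 0.0276) and 3.06 for LOC100506123 (adjusted p = 0.00211). Against trunc/+ clones it was −5.17 for IFI27, −5.70 for IFI6, −3.91 for IFIT1, −4.13 for ISG15, −2.26 for RSAD2 and −2.76 for IRF9 (highest adjusted p 0.0356). IRF9 had 3.78, 4.19 and 3.28 in -/+ clones, 9.33, 12.4 and 4.81 in trunc/+ clones and 2.66 and 2.81 in WT clones, so for IRF9 the bulk and trunc/+ changes had opposite signs (−1.45 and 1.32). The bulk differences share their bulk libraries between both comparisons.

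Reads on the strand opposite to the TE copy, which the comparisons above did not use, also lay above the controls in bulk Z18 CRISPR for LTR elements (log2 difference 0.39) and DNA elements (0.46), with all edited libraries above all controls in both (two-sided exact p = 0.1, the smallest possible). On that strand LINEs (log2 difference 0.16, exact p = 0.6) and SINEs (−0.26, exact p = 0.7) overlapped between the groups.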

How the results depend on the processing

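For genes, 23 were higher and 19 lower in bulk Z18 CRISPR, and these counts were 8 and 12 with a pseudocount of 0.1, 9 and 7 with no filter on low values, 10 and 12 at a mean FPKM of at least 5, 15 and 11 on TPM, 25 and 48 after quantile scaling, 8 and 11 with sample quality weights, and 207 and 170 with all 14 libraries in the fit. With any 1 library left out they were between 0 and 982 higher and between 4 and 345 lower. In an alternative chosen after seeing the data, which kept the same genes tested, they were between 1 and 980 higher and between 4 and 371 lower. For TE copies, 0 higher and 1 lower became 101 and 84 with DESeq2 and 6 and 24 with no filter on low counts, and ranged from 0 to 282 higher and 0 to 134 lower with any 1 library left out. For subfamilies, 0 became 10 with DESeq2, 1 with uniquely mapped counts, 1 with no filter, and 0 to 173 with any 1 library left out. In each of these the highest count came without control 1. Genes whose change differed from the clones numbered 2 for -/+ and 1 for trunc/+ at a pseudocount of 0.1, and with any 1 bulk library left out 3 to 233 and 2 to 257. The DNA element sum had a log2 difference of −0.13 over copies outside annotated genes, in place of 0.37. The cause of these shifts was not tested. TMM and median-of-ratios scaling left the counts of TE copies and subfamilies past the adjusted threshold at 0 or 1, but turned the balance of directions at an unadjusted p under 0.05, to 812 copies higher and 1014 lower and 53 subfamilies higher and 92 lower with TMM. The sums of LTR, LINE and SINE kept their direction under every alternative tried for sums. TMM and median-of-ratios scaling were not among these, so the direction of the sums under such scaling was not tested. The labels do not say whether libraries with the same replicate number were matched. Same-numbered edited and control libraries had correlations of deviations of −0.17, −0.22 and 0.18, and not every library correlated best with its own number. With 3 libraries a group such correlations cannot show whether the libraries were paired. With a replicate block the genes were 123 higher and 97 lower, the copies 2 higher and 3 lower, and the subfamilies 7.

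Gene values carry no depth, and 3 libraries a group cannot give an exact p under 0.1, so absence of a call for a class or family is no evidence of equality.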
